A study of Mus musculus with 6 samples.

Results

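The genes described here are 10 immediate early genes: Fos, Fosb, Jun, Junb, Egr1, Egr2, Egr3, Atf3, Ier2 and Ier3. They were chosen by name, and every probe set that the array annotation assigns to exactly 1 of them was taken. This gave 13 of the 45101 probe sets and 10 of the 18193 genes that a probe set names alone, with 2 probe sets each for Jun, Egr2 and Egr3 and 1 for each other gene. The samples were of left ventricle from male C57BL/6 mice aged 12 to 16 weeks, 3 of wild type and 3 of akt2-/- mice, whose Akt2 gene was disrupted by targeting. The knockout line had been backcrossed more than 7 times to wild type C57BL/6 mice. The disruption is not tied to a cell type by the labels, and they leave unsaid whether each sample is a different mouse. The p-values therefore cover no more than the spread of these 6 samples, which may be technical. Each sample was hybridised to its own array, and the number of arrays limits the precision of every value below.

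Immediate early genes are transcribed within minutes of a stimulus without new protein synthesis, through factors such as SRF with its ternary complex partners and CREB that are already bound to their promoters. Fos and Jun proteins pair through leucine zippers to form the transcription factor AP-1, and Egr proteins are zinc finger transcription factors that bind GC-rich sites. In the heart these genes are known to respond to stretch, adrenergic stimulation, growth factors and ischaemia, and their mRNAs are short-lived. Akt2, the kinase disrupted here, carries insulin signals to glucose transport.

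No member passed the test between the genotypes over all 6 arrays, and a single knockout array held the largest values of most members. In knockout replicate 1 the signal of Fos was 2308.7, against 269.2 to 785.7 on the other 5 arrays. Fosb, Junb and Egr1 were also highest on that array. In replicates 2 and 3 the same 4 genes had lower means in the knockout than in the wild type. Jun, Atf3 and Ier2 had higher means in the knockout both within the replicate 1 pair and among replicates 2 and 3. Ier3 and the brighter Egr3 probe set had lower means in the knockout in both.

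The genotype labels were borne out by Akt2, whose brightest probe set had signals of 2362.6, 2561.3 and 2505.4 in wild type replicates 1, 2 and 3 and 477.8, 394.5 and 255.4 in the knockout replicates. The 2 arrays numbered replicate 1 differed from the other 4. Their median signals were 167.2 (wild type) and 134.3 (knockout) against 88.4 to 91.2, and the median signals of their 3 18S ribosomal RNA control probe sets were 82330 and 57275 against 152.7 to 446.7. The Actb 3′ to 5′ signal ratio was 1.61 and 1.67 on these 2 arrays against 1.34 to 1.48 on the others. The median signal of the 27 poly-A control probe sets was 57 (wild type) and 54.2 (knockout) on them, against 456.9 to 825.8 on the others. The labels name no batch. For this reason each difference is given over all 6 arrays, in the replicate 1 pair, which has 1 array a genotype and no test, and in replicates 2 and 3. The 8 ventricular myocyte markers searched, among them Myh6, Myl2 and Tnnt2, were all bright, with summed signals of 374200 to 1168900 in the wild type and 453550 to 716010 in the knockout.

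Signals are linear values with no absolute unit, with a 2% trimmed mean of 500 on every array, and a level of 1 probe set cannot be set against that of another. Differences are on the scale log2(signal + 21.7), knockout minus wild type, and understate the change of dim probe sets. Of the 13 member probe sets, 9 (of 8 genes) were bright enough to enter the limma test over 22519 probe sets. The probe set of Fosb, both of Egr2 and 1 of Egr3 were below that filter. For these 4, values of the fit without a filter, over 45037 probe sets, are given. No detection calls were used here, so whether the dim probe sets were above background is not known.

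Over all 6 arrays limma called 0 of the 9 tested members at an adjusted p under 0.05, as it did 0% of all tested probe sets. At an unadjusted p under 0.05 it counted 1 of the 9, the brighter Egr3 probe set, against 2.01% of all tested probe sets. Without the filter it counted 0 of 13 member probe sets at an unadjusted p under 0.05, against 2.83% of all. In none of the 9 tested members did the 3 knockout arrays lie on 1 side of the 3 wild type arrays, which 7.3% of all tested probe sets did, and the genotypes overlapped in the 4 dim probe sets as well. Knockout replicate 1 was the highest of the 6 arrays in 5 of the 9, Fos, Junb, Egr1, Atf3 and Ier2, against 23.2% of all tested probe sets, and also in Fosb and the dimmer Egr3 probe set.

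**Figure D1:**
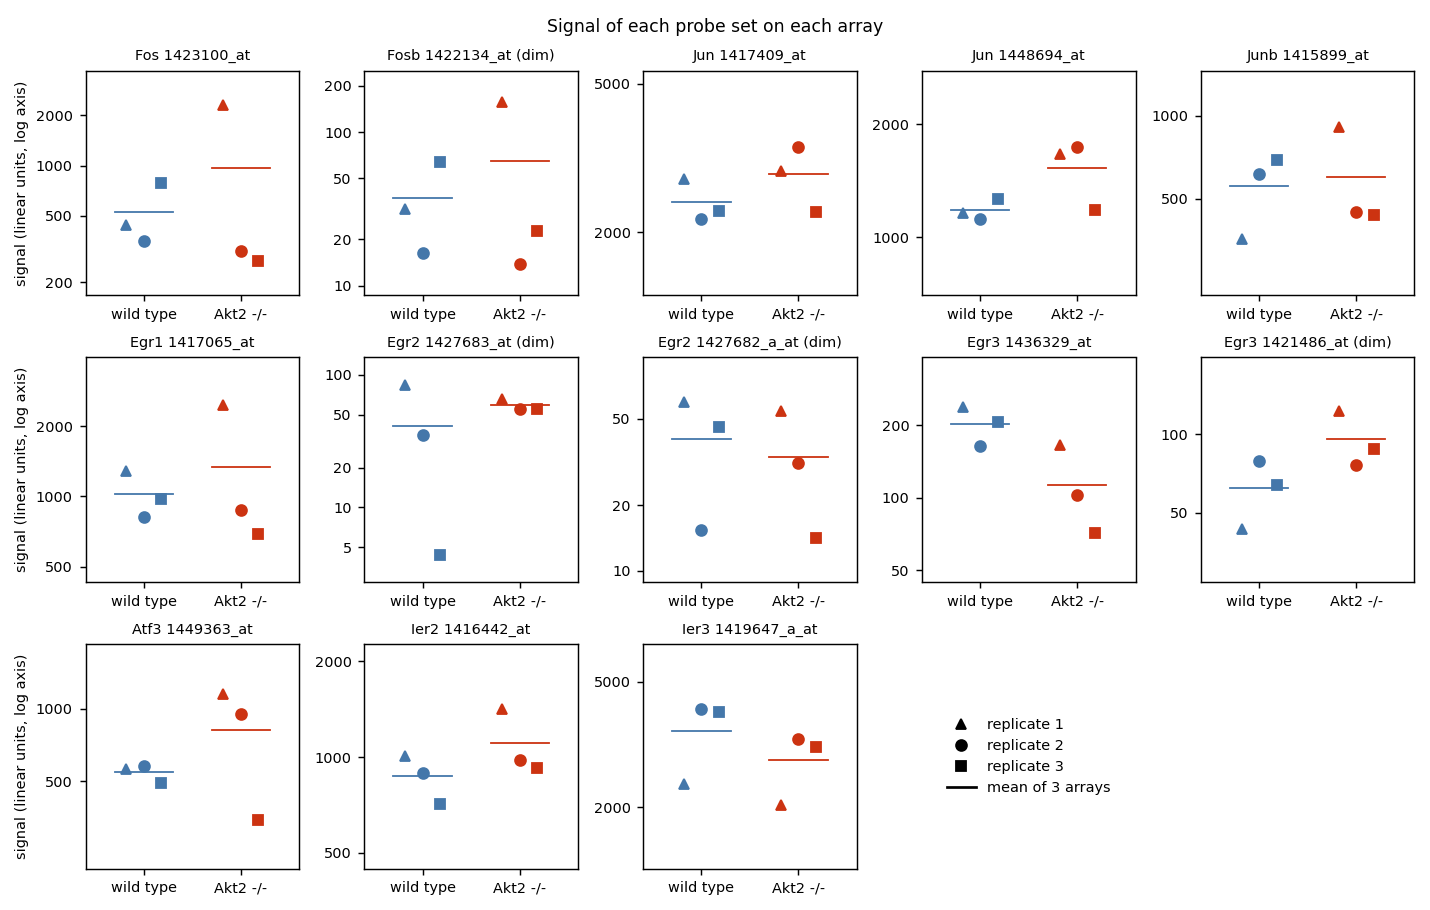
Signal (linear units on a log axis) of the 13 probe sets on each of the 6 arrays; triangles are replicate 1, circles replicate 2, squares replicate 3, and lines are means of 3 arrays. The triangle of the knockout lies far above the other 5 arrays for Fos (2308.7) and Fosb (157.4) and is also the highest for Junb, Egr1, Atf3 and Ier2; panels marked dim were below the filter.

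Fos (probe set 1423100_at), the founding member of the Fos family, had signals of 443.4, 354.6 and 785.7 in wild type replicates 1, 2 and 3 and 2308.7, 310.1 and 269.2 in knockout replicates 1, 2 and 3. A single knockout array was thus high, and the other 2 lay below every wild type array. The signal in knockout replicate 1 was 5.21 times that in wild type replicate 1 and 7.97 times the mean of knockout replicates 2 and 3. Wild type replicate 1 showed no such excess, with 0.778 times the mean of wild type replicates 2 and 3. The log2 difference was 2.33 in the replicate 1 pair, higher than that of 99.4% of all tested probe sets, and -0.83 (SE 0.37) in replicates 2 and 3, higher than that of 0.617%. Over all 6 arrays it was 0.22 (SE 0.80, limma adjusted p = 0.9999). The direction rests on single arrays: without knockout replicate 1 it was -0.75, and without wild type replicate 2 it was -0.01, while without knockout replicate 3 it was 0.76.

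Fosb (1422134_at), a Fos family protein that pairs with Jun proteins, was dim, with 31.7, 16.3 and 63.5 in the wild type and 157.4, 13.9 and 22.7 in the knockout. The order of the arrays was close to that of Fos, with knockout replicate 1 highest and wild type replicate 3 next. Its log2 difference was 1.75 in the replicate 1 pair, -0.52 in replicates 2 and 3 and 0.24 (SE 0.66) over all 6 arrays (limma adjusted p = 0.9999 without a filter). It turned to -0.49 without knockout replicate 1 and to -0.04 without wild type replicate 2.

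Junb (1415899_at), a Jun family protein that can limit the activity of Jun, had 357.1, 616.8 and 690.1 in the wild type and 911.6, 446.3 and 437.5 in the knockout. Its highest and its lowest signal both came from the replicate 1 pair, and among the other 4 arrays those of the knockout were below those of the wild type. The signal in knockout replicate 1 was 2.55 times that in wild type replicate 1, while the mean of knockout replicates 2 and 3 was 0.676 times that of the wild type. The log2 difference was 1.30 in the pair, -0.54 (SE 0.12) in replicates 2 and 3 and 0.07 (SE 0.37) over all 6 arrays (limma adjusted p = 0.9999). In replicates 2 and 3 its limma adjusted p was 0.489. Over all arrays but 1 it was -0.26 without knockout replicate 1 and -0.20 without wild type replicate 1.

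Jun, the main partner of Fos in AP-1, was measured by a pair of probe sets. The brighter (1417409_at) had 2776.4, 2173.1 and 2273.3 in the wild type and 2926.4, 3386.4 and 2265.9 in the knockout, and the dimmer (1448694_at) had 1156.9, 1120.8 and 1266.5 against 1673.1, 1741.1 and 1181.4. On both, knockout replicates 1 and 2 were above every wild type array and knockout replicate 3 was among them. The log2 differences were 0.24 (SE 0.22) and 0.35 (SE 0.21), each with a limma adjusted p of 0.9999. That of the brighter was 0.10 without knockout replicate 2 and 0.39 without knockout replicate 3. In the replicate 1 pair they were 0.08 and 0.52, and replicates 2 and 3 gave 0.32 and 0.26. Jun thus lacked the excess of knockout replicate 1 over the other knockout arrays that Fos showed, with 1.04 and 1.15 times their mean.

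Upstream sequences of Fos, Fosb, Junb, Jun and Ier3 are printed below. Those of Egr2 and Atf3 are not printed, and their matches are given after the sequences. Egr1, which like Fos was highest on knockout replicate 1, had no entry in the promoter table. Whether any motif goes with the signals over the 6 arrays was not tested. The sequences are the 250 bases before each RefSeq start in assembly GRCm38.p6, 5′ to 3′ on the gene's strand, from the promoter table, which matched 7 of the 10 members (Fos, Fosb, Jun, Junb, Egr2, Atf3 and Ier3). Capitals mark TGACG, the core of the CREB and ATF binding motif, on either strand.
Fos, chr12:85473640-85473889, + strand: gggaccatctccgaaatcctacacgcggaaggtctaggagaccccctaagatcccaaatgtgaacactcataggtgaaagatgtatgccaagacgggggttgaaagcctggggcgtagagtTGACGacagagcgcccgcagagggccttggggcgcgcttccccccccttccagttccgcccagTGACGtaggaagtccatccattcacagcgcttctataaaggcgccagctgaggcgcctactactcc
Fosb, chr7:19310046-19310295, - strand: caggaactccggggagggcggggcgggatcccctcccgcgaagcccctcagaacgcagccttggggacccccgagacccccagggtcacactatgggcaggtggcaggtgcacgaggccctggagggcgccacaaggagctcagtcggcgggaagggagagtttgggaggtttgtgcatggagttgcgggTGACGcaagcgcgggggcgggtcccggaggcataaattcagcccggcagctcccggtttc
Junb, chr8:84978749-84978998, - strand: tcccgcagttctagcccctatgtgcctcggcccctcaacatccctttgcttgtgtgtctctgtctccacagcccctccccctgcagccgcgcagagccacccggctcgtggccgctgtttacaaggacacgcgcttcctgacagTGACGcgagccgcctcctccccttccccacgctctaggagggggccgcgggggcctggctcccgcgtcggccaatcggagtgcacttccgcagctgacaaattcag
Jun, chr4:95052223-95052472, - strand: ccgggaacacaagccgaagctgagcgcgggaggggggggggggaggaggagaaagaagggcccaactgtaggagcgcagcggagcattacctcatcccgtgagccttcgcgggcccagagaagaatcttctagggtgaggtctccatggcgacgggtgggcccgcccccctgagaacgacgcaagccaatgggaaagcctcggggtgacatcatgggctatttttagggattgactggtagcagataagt
Ier3, chr17:35821463-35821712, + strand: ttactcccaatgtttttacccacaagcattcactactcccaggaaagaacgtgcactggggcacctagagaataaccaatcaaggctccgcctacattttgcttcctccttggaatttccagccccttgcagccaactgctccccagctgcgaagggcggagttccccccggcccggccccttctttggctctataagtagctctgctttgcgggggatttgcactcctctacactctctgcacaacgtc
TGACG was found 2 times before Fos, 129 and 66 bases upstream of the start counted from the motif's leftmost base as printed. It was found once before Fosb, at 60 bases, and once before Junb, at 106 bases. The windows of Jun and Ier3 did not hold these letters. That of Atf3 held it on the opposite strand 7 bases upstream. Of the 5 Egr2 windows 3, which overlap one another, held the same 2 matches. Both Egr2 probe sets were highest on wild type replicate 1, so TGACG was not limited to genes highest on knockout replicate 1. Of all 32851 windows in the table, 17.8% held TGACG on either strand. The full palindrome TGACGTCA, which contains TGACG, was in none of the member windows and in 1.55% of all. The AP-1 motif TGANTCA was in none of them and in 6.75% of all. TATAAA, on either strand, was 33 bases upstream of Fos and in 12.4% of all windows, and the EGR motif GCGNGGGCG was 50 bases upstream of Fosb and in 4.7% of all. The CArG box, the binding motif of SRF, was in 4 of the 5 Egr2 windows and in 1.47% of all. The same 3 overlapping Egr2 windows share 1 such site. Sites more than 250 bases upstream were outside the windows, so a motif not found here may lie further away. A match is an exact run of letters and was not tested as a binding site. Near matches were not searched.

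Atf3 (1449363_at), a stress-induced protein of the ATF and CREB family that pairs with Jun proteins, had 563.5, 576.4 and 493.4 in the wild type and 1155.6, 948.5 and 347.3 in the knockout. The wild type arrays lay close together, and the knockout arrays lay on both sides of them. The log2 difference was 1.01 in the replicate 1 pair, 0.11 in replicates 2 and 3 and 0.41 (SE 0.43) over all 6 arrays (limma adjusted p = 0.9999). It was 0.08 without knockout replicate 1, 0.22 without knockout replicate 2 and 0.92 without knockout replicate 3.

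Egr1 (1417065_at), a zinc finger factor induced with Fos by many stimuli, had 1280.2, 813.2 and 975.6 in the wild type and 2464.1, 869.9 and 687.4 in the knockout. As with Fos, 1 knockout array was high and the other 2 lay within or below the wild type range. Knockout replicate 1 had 1.92 times the signal of wild type replicate 1 and 3.16 times the mean of knockout replicates 2 and 3. Wild type replicate 1 had 1.43 times the mean of wild type replicates 2 and 3. The log2 difference was 0.93 in the pair, -0.20 (SE 0.17) in replicates 2 and 3 and 0.18 (SE 0.48) over all 6 arrays (limma adjusted p = 0.9999), and it was -0.37 without knockout replicate 1 and 0.54 without knockout replicate 3.

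Egr2 and Egr3, related zinc finger factors, were dim on 3 of their 4 probe sets. The brighter Egr3 probe set (1436329_at) had 238.7, 164.1 and 205.8 in the wild type and 165.6, 103.1 and 71.7 in the knockout. Its lowest wild type array was just below the highest knockout array, and all others were separated. It had the lowest unadjusted p of the members, with a log2 difference of -0.78 (SE 0.29, unadjusted p = 0.0338, limma adjusted p = 0.9999), -0.48 in the pair and -0.93 (SE 0.20) in replicates 2 and 3. The dimmer Egr3 probe set (1421486_at) went the other way, with 43.5, 78.8 and 63.8 against 122.6, 76.2 and 87.3 and a log2 difference of 0.49 (SE 0.28), or 0.32 without wild type replicate 1, so the array gave no single direction for Egr3.

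The Egr2 probe sets had signals of at most 84.3 on every array. They gave 84.3, 35.3 and 4.4 against 65.8, 55.6 and 54.8 on 1427683_at, and 59.9, 15.4 and 46.0 against 54.1, 31.3 and 14.2 on 1427682_a_at. Their log2 differences were 0.57 (SE 0.50) and -0.17 (SE 0.42), again in opposite directions, each with a limma adjusted p of 0.9999 without a filter. The first was 0.05 without wild type replicate 3, was 1.06 without wild type replicate 1 and was 1.22 with a pseudocount of 1. The other ran from -0.50 without wild type replicate 2 to 0.10 without knockout replicate 3.

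Ier2 (1416442_at), a nuclear protein of the immediate early response, had 1008.6, 893.4 and 713.4 in the wild type and 1412.6, 979.2 and 922.6 in the knockout. Within replicates 2 and 3 both knockout arrays were above both wild type arrays. The log2 difference was 0.48 in the pair, 0.25 (SE 0.15) in replicates 2 and 3 and 0.32 (SE 0.24) over all 6 arrays (limma adjusted p = 0.9999). It was 0.14 without knockout replicate 1 and 0.19 without wild type replicate 3. Ier3 (1419647_a_at), a stress-induced regulator of cell survival, had 2364.6, 4107.3 and 3996.5 in the wild type and 2037.0, 3296.3 and 3102.7 in the knockout. It was the only tested member whose 2 lowest arrays were those of the replicate 1 pair. Its log2 difference was -0.21 in the pair, -0.34 (SE 0.12) in replicates 2 and 3 and -0.30 (SE 0.30) over all 6 arrays (limma adjusted p = 0.9999). It was -0.08 without knockout replicate 1, -0.16 and -0.18 without wild type replicates 2 and 3, and -0.55 without wild type replicate 1.

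**Figure D2:**
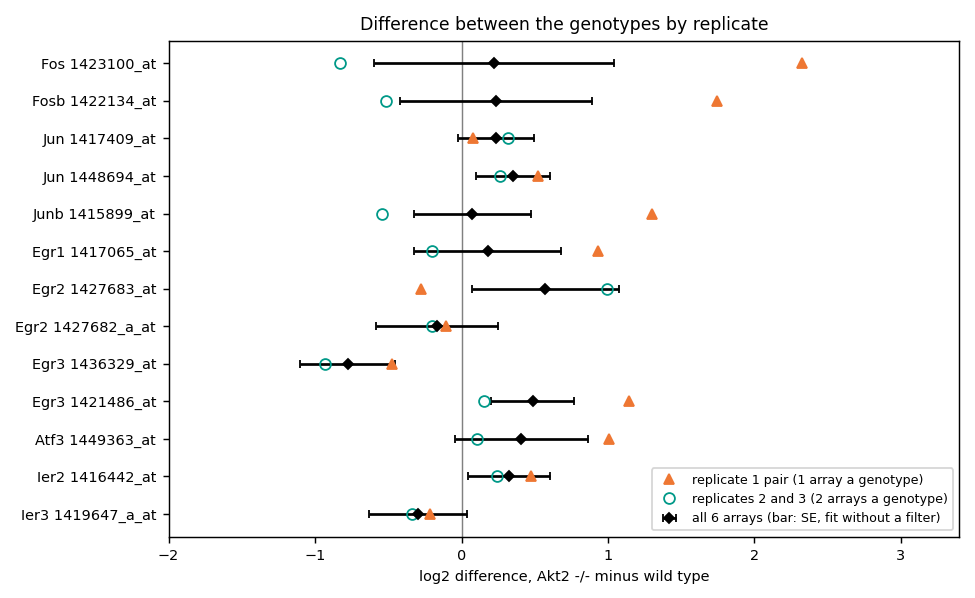
Log2 difference, knockout minus wild type, of the 13 probe sets over all 6 arrays (diamonds, bars are SE of the fit without a filter), in the replicate 1 pair (triangles) and in replicates 2 and 3 (circles). For Fos, Fosb, Junb and Egr1 the triangle is above 0 and the circle below it; for Jun, Ier2, Ier3 and Egr3 1436329_at both lie on the same side.

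In 3 of the 9 tested members, Fos, Junb and Egr1, the replicate 1 pair and replicates 2 and 3 had opposite signs, against 50% of all tested probe sets, so a change of sign was no more frequent among them than over the whole array. In the replicate 1 pair 3 of the 9, Fos, Junb and Atf3, were at least 2-fold higher in the knockout on the log2 scale, against 5.42% of all. In replicates 2 and 3, 2 of the 9, Fos and the Egr3 probe set, were at least 1.5-fold lower, against 2.11%, and 0 were at least 1.5-fold higher, against 1.94%. In those 4 arrays both knockout values were below both wild type values in 4 of the 9 (Fos, Junb, Egr3 and Ier3), against 21.6% of all, and above them in 1 (Ier2), against 20.4%.

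Tested on their own, replicates 2 and 3 gave an unadjusted limma p under 0.05 in 3 of the 9, Junb (0.00758), Egr3 (0.00547) and Ier3 (0.0349), against 9.31% of all tested probe sets. All 3 were lower in the knockout, which 4.87% of all were at that p. None passed over all probe sets, where 0% were called. With the replicate 1 pair and the other 4 arrays as blocks, 2 of the 9 had an unadjusted p under 0.05, Egr3 (0.00581) and Ier3 (0.0389), against 7.77% of all, and 0 had an adjusted p under 0.05, against 0.00444%. A trended, robust variance estimate with these blocks raised the first count to 4, against 8.31%. It added the dimmer Jun probe set (0.0452) and Ier2 (0.0311) and called 0 members, against 0.0577% of all. With the replicate number as a block the count was 1, Egr3 (0.0141), against 5.63%, and 0 members were called, against 0%.

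The genotype difference in the replicate 1 pair exceeded that in replicates 2 and 3 by 3.15 on the log2 scale for Fos, 1.84 for Junb and 1.13 for Egr1. These values are a description. The genes stand out by the array that prompted the comparison, and the pair has 1 array a genotype, so no test is given and a difference between mice and one between arrays cannot be told apart.

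Other measures differed on the replicate 1 arrays as well. The summed signal of the 8 macrophage markers was 16664, 23636 and 24185 in wild type replicates 1, 2 and 3 and 12148, 18524 and 23108 in the knockouts. That of the 8 endothelial markers was 11103, 14055 and 14005 against 9768, 12513 and 12574. Both sums were thus lowest on the replicate 1 array of each genotype. All 8 of each list had a negative log2 difference over the 6 arrays, as did 5174 of all 11075 genes tested. None of these marker signals was 0. Of the neutrophil markers only S100a8 and S100a9 were bright enough to be tested. Their summed signal was 107.1, 2097 and 1136 in wild type replicates 1, 2 and 3 and 692.3, 562.1 and 987.3 in the knockouts, so wild type replicate 1 was lowest and wild type replicate 2 highest. Both were higher in the knockout in the pair and lower in replicates 2 and 3, with log2 differences of 2.72 and -0.93 for S100a8 and 1.88 and -1.09 for S100a9. Unlike Fos, they were not raised on knockout replicate 1, where 390.2 and 302.1 lay below wild type replicates 2 and 3. The low array of the pair was wild type replicate 1, with 40.8 and 66.3. Csf3r, Mpo, Elane and Cxcr2 were dim. In the pair Csf3r, Mpo and Elane went against S100a8 and S100a9, with log2 differences of -1.11, -2.08 and -1.76, while Cxcr2 had 0.36. The neutrophil list thus gave no single direction in the pair. The ventricular myocyte markers went the other way: all 8 were lower in the knockout in the pair (median -0.66, sums of 716010 against 1168900). In replicates 2 and 3, 7 of 8 were higher (median 0.17), with sums of 374200 to 500440. Wild type replicate 1 was thus the array with the highest sum. Atrial myocyte, fibroblast, smooth muscle and skeletal muscle markers had 6, 8, 7 and 4 members tested, of which 5, 6, 5 and 0 were higher in the knockout. Of these markers 0 had an unadjusted limma p under 0.05, against 1.76% of all genes tested. The part of these differences, and of the 18S, poly-A control and 3′ to 5′ values above, in the high values of Fos, Fosb, Junb and Egr1 was not tested. In bulk tissue, fewer cells of a type and less RNA per cell cannot be told apart.

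The pattern was then set beside other immediate early genes. Of 32 listed, 27 were tested on their brightest probe set, 16 with a higher and 11 with a lower mean in the knockout. Limma called 0 of them, and 2, both higher, had an unadjusted p under 0.05, against 1.76% of all 11075 genes tested. The median log2 difference was 0.04 over all arrays, 0.35 in the replicate 1 pair and -0.05 over replicates 2 and 3, where all genes had medians of 0.01, 0.01 and 0.003. Knockout replicate 1 was the highest array in 10 of the 27, against 21.9% of all genes. The summed signal of the 27 was 37728, 55573 and 50596 in wild type replicates 1, 2 and 3 and 53873, 50904 and 43852 in the knockouts. The lowest sum was thus that of wild type replicate 1, and knockout replicate 1 lay within the range of wild type replicates 2 and 3. Bright genes weigh most in such a sum. Nr4a1 and Nr4a2, orphan nuclear receptors induced with Fos, were the 2 genes with the lowest p. Nr4a1 had 2367.9, 1239.3 and 822.1 in the wild type and 6182, 2473.2 and 2451.7 in the knockout, with log2 differences of 1.38 in the pair and 1.27 in replicates 2 and 3, and Nr4a2 had 2.29 and 1.40. Both were thus higher in the knockout in replicates 2 and 3 too, where Fos was lower.

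The next by p were Ccn2, a secreted matricellular protein, and Csrnp1, a nuclear protein. Ccn2 had 2014.2, 3399.1 and 3250.2 against 2017.7, 2107.3 and 1602.3, with log2 differences of 0.002 in the pair and -0.85 in replicates 2 and 3. Csrnp1 had 1.85 and 0.22, with signals of 109.1, 348.1 and 214.4 in the wild type and 451.2, 384.5 and 271 in the knockout. Their unadjusted limma p over all 6 arrays were 0.0666 and 0.0981.

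**Figure D3:**
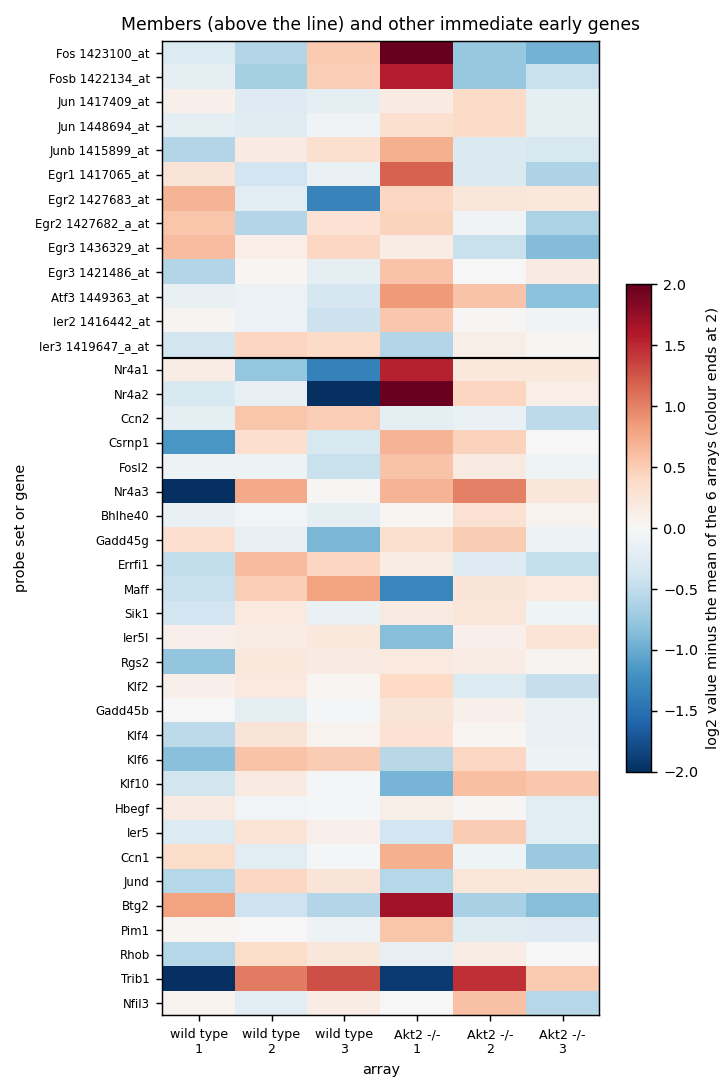
Log2 values minus the mean of the 6 arrays, for the 13 member probe sets (above the line) and 27 other immediate early genes (below it, ordered by p); red is above and blue below the mean, and colours end at 2. The column of knockout replicate 1 is the highest of its row for 7 of the 13 member probe sets and 10 of the 27 other genes. Among them are Fos, Fosb, Egr1, Nr4a1, Nr4a2 and Btg2, while Ier3 is blue there.

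Genes that switch the response off or blunt it were examined next, among them phosphatases of MAP kinases, the Egr corepressors Nab1 and Nab2 and the Sprouty and Spred inhibitors of Ras signalling. Of 21 listed, 19 were tested, 15 with a higher and 4 with a lower mean in the knockout, where 5901 of all 11075 genes were higher. An unadjusted limma p under 0.05 was found in 0 of the 19, against 1.76% of all genes. Their median log2 difference was 0.13 over all arrays, 0.37 in the replicate 1 pair and -0.06 over replicates 2 and 3. In the pair 18 of the 19 were higher in the knockout, against 5682 of all 11075 genes. In replicates 2 and 3, 6 were, against 5616 of all. Knockout replicate 1 was the highest array in 11, against 21.9% of all genes. The summed signal of the 19 was 22298, 31755 and 31405 in wild type replicates 1, 2 and 3 and 32842, 29440 and 27895 in the knockouts. Wild type replicate 1 thus had the lowest sum, and knockout replicate 1 was little above wild type replicates 2 and 3. The 4 with the lowest p were Socs3 (log2 -0.38, SE 0.24), Dusp10 (0.29, SE 0.19), Nab2 (0.25, SE 0.20) and Spry2 (0.25, SE 0.20). Nab2, which binds Egr1 and is itself an Egr1 target, had 411.0, 343.3 and 328.6 in the wild type and 507.9, 420.4 and 372.4 in the knockout.

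**Figure D4:**
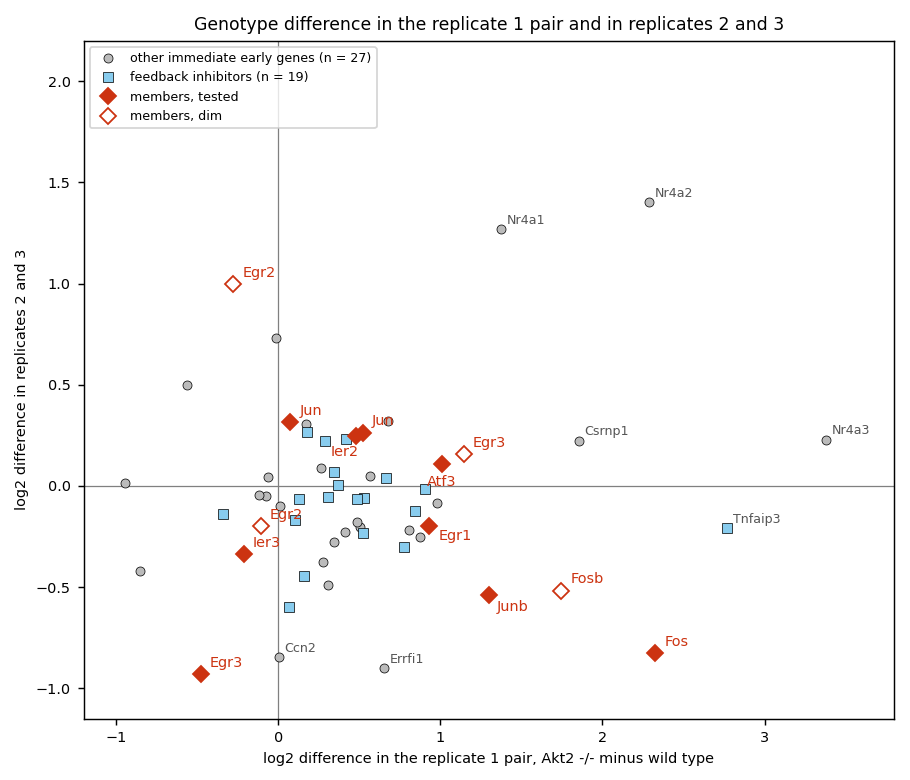
Log2 difference, knockout minus wild type, in the replicate 1 pair (horizontal) against that in replicates 2 and 3 (vertical), for members (red diamonds, open where dim), 27 other immediate early genes (grey) and 19 feedback inhibitors (blue). Fos, Fosb, Junb and Egr1 lie to the lower right (higher in the pair, lower in the others), and Nr4a1 and Nr4a2 to the upper right.

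The 13 tested AP-1 partners included Jund and the Maf and Batf proteins. Of these, 5 had a higher and 8 a lower mean in the knockout, and the median log2 difference was -0.11. An unadjusted limma p under 0.05 was found in 0, against 1.76% of all genes tested. Fosl2, a Fos family protein counted among the immediate early genes above as well, had the lowest p of them, with 593.4, 595.9 and 462.1 in the wild type and 963.8, 726.9 and 599.8 in the knockout (log2 0.44, SE 0.23). All 3 of its knockout arrays were above all 3 wild type arrays. The genotypes were separated, in either direction, in 826 of all 11075 genes tested. Batf2 (-0.38), Maff (-0.56) and Batf (-0.23) followed. Of the 20 tested factors and kinases that induce these genes, 11 were higher and 9 lower, with a median of 0.008. Again 0 had an unadjusted limma p under 0.05, against 1.76% of all genes. Mapk14, a stress-activated kinase, had log2 0.37 (SE 0.19), and the SRF partners Elk3, Elk4 and Elk1 had -0.19, -0.33 and 0.66.

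Of 16 tested genes reported as AP-1 or Egr targets, 6 were higher and 10 lower in the knockout, with a median of -0.11. An unadjusted limma p under 0.05 was found in 1 of them, Ccl2, a monocyte chemoattractant, against 1.76% of all genes tested. Ccl2 had 259.3, 382.6 and 303.5 in the wild type and 195.4, 189.1 and 233.5 in the knockout (log2 -0.55, SE 0.21, adjusted p = 0.9999). Its groups did not overlap, as in 826 of all 11075 genes, and it was lower in the pair (-0.37) as in replicates 2 and 3 (-0.64). Hmox1 (-0.85, SE 0.37), Vegfa (0.36, SE 0.22) and Icam1 (-0.31, SE 0.22) followed by p.

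The heat shock genes, induced by protein damage, had another array as their highest. Hspa1b had 302.1, 7295.3 and 4000.2 in the wild type and 2697, 25764 and 3060.4 in the knockout, so knockout replicate 2 was highest, and Hspa1a and Hsph1 were also highest there. Of the 12 tested, 10 had a higher and 2 a lower mean in the knockout, where 5901 of all 11075 genes were higher. An unadjusted limma p under 0.05 was found in 1, against 1.76% of all genes. Knockout replicate 1 was the highest array in 0, against 21.9%. Dnajb1 had log2 0.69 (SE 0.27, limma adjusted p = 0.9999) and did not overlap between the genotypes, as in 826 of all genes. Of 13 tested clock genes 9 were higher and 4 lower, and of 13 tested hypoxia genes 7 were higher and 6 lower. In both lists 0 had an unadjusted p under 0.05, against the same 1.76%. Cry1 had the lowest p of the clock genes (log2 0.43, SE 0.27) and Vegfa that of the hypoxia genes.

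The genes most like Fos and Egr1 over the arrays were found by the root mean square difference of mean-centred log2 values, over 11067 other genes tested on their brightest probe set. Nearest to Fos over all 6 arrays were Gm20199 (0.317), Ccdc138 (0.515), Gm33409 (0.527), Dusp13 (0.533) and Nfatc4 (0.549), where the median gene had 1.04. The dim Fosb probe set was nearer than any of these, at 0.291. Among members Egr1 (0.550) and Junb (0.722) came next, and 0.0452% and 0.614% of the other genes were nearer than they. Jun, at 1.01, was as far as the general run, with 41% of genes nearer. Seen from Egr1, 35.5% of the other genes were nearer than Fos and 26.2% nearer than Junb. Ier2, Fosb and Atf3 lay closer, with 9.63%, 10.3% and 14% of the other genes nearer than they. For Jun, Egr3, Egr2 and Ier3 the shares ran from 32.1% to 90.7%. Nearest to Egr1 were Dusp13 (0.0921), N4bp2 (0.0982), Megf11 (0.145), Ccdc138 (0.158) and 4930552P12Rik (0.161). Several of these neighbours were dim. Gm20199 had 74.4, 82.2 and 135.8 in the wild type and 300.9, 46.4 and 52 in the knockout. Dusp13 had 137.4, 67.5 and 106.2 against 256.7, 78.5 and 56.1. Without knockout replicate 1, Gm20199, Dusp13 and 4930552P12Rik would have averaged below the filter. Their place among the candidates thus rests on the array that was high for Fos and Egr1.

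Centring within the replicate 1 pair and within the other 4 arrays took out the level difference between them. Gm20199 was again nearest to Fos (0.238), followed by Hmgb2, Serpina3n, Plxdc1 and Kalrn (0.266 to 0.328), with Fosb at 0.257 and Junb at 0.422. Nearest to Egr1 were then Tubb1, 2610044O15Rik8, Txndc11, Ahr and Acsl4 (0.0466 to 0.0593). Of the other genes 91.7% were nearer to Egr1 than Fos was, and 7.83% were nearer than Junb. For the remaining members this share ran from 30.9% (Ier2) to 98.5% (Egr2). All genes compared share the same 6 arrays, so these distances describe the arrays and no test was made.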

How the data were processed

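Left ventricle RNA of 6 samples was measured on 6 Affymetrix arrays. The deposited values are intensities, 1 linear signal a probe set, made with MAS5 per the submitters' processing notes; no version or setting of it is known here. The 2% trimmed mean was 500 on every array, and this scaling was kept.

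The pseudocount in log2(signal + 21.7) is the 20th percentile of all values. The 64 control probe sets and those averaging below the median (6.868 on this scale) were left out. Genotypes were compared by limma 3.58.1 (lmFit, eBayes, no covariate; R 4.3.3), with p-values adjusted by Benjamini-Hochberg over all 22519, with a threshold of 0.05. Names come from the platform annotation, which gives 1 gene symbol for 34945 probe sets, several for 932 and, for 9160, none used here. A gene is represented by its brightest probe set except for members. Promoter sequences are from RefSeq, GRCm38.p6.

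Deviations from the genotype means correlated at 0.607, 0.455 and 0.394 for same-numbered arrays over probe sets, and at 0.445 and 0.363 for arrays numbered 2 and 3 crosswise. These values set the replicate 1 pair apart and do not separate numbers 2 and 3. A replicate block was fitted too, and what the number marks is not labelled. Alternatives were other blocks, pseudocounts, filters, scalings and variance estimates, and leaving out each array. Members and gene lists were chosen with earlier results of these data known. Named genes were all members, Akt2, the 4 of each list described with the lowest unadjusted p, and the 5 nearest to Fos and to Egr1; neutrophil and myocyte markers and Btg2 were named after their values were seen.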

Additional observations from a re-analysis of the deposited data

How the results depend on the processing

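The genotype difference of no member passed an adjusted p under 0.05 in limma under any alternative run, and its lowest adjusted p was 0.489. The count of all probe sets called moved from 0 to 1 with the replicate 1 pair as a block and to 13 with that block and a trended, robust variance. The count of tested members with an unadjusted p under 0.05 moved from 1 to 2, 4 and 3 with that block, with that block and the trended, robust variance, and in replicates 2 and 3 alone. It was 0 with the trended, robust variance alone, without a filter and with the filter at the 75th percentile, and between 0 and 2 when each array was left out in turn. The replicate block left it at 1 and changed no call.

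Log2 differences changed sign in replicates 2 and 3 alone for Fos (-0.83), Fosb (-0.52), Junb (-0.54) and Egr1 (-0.20), and in the replicate 1 pair for Egr2 1427683_at (-0.28, against 0.57 over all arrays). With each array left out they ran from -0.75 to 0.76 for Fos, -0.49 to 0.68 for Fosb, -0.26 to 0.25 for Junb, -0.37 to 0.54 for Egr1 and -0.50 to 0.10 for Egr2 1427682_a_at. Fits without an array leave the replicate 1 arrays in unequal shares of the genotypes. No other member changed sign under any alternative run, and neither the pseudocounts nor the scalings turned any member. Setting equal array medians moved the median of all tested probe sets from 0.008 to 0.10. The 4 dim probe sets give the least certain values.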
